A study of Mus musculus with 30 samples.

Results

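The comparison described here set susceptible females against unstressed Control females within 1 class of striatal output neuron, the D1 medium spiny neuron of the nucleus accumbens. It used 10 of the 30 RNA-seq libraries of the series, 5 in each group, and every gene with enough reads to test, 19368 of 55335. Libraries were taken by the class and group in their sample titles. All mice were female and of the genotype D1-Cre-RT, in which Cre driven with the D1 dopamine receptor gene allows polyribosomes to be pulled down by an HA tag. The labels do not spell out RT, which is taken here to stand for RiboTag, an allele that tags the ribosomal protein Rpl22. The labels give no age. Control mice had no stress, and Susceptible mice had been exposed to CWDS (chronic witness defeat stress), a procedure in which females watch an aggressor attack a male. Stressed mice were sorted into Susceptible and Resilient by a social interaction test, so the group label is itself a behavioural score. Tissue was punched 24 h after that test, tagged polyribosomes were pulled down with an antibody against HA, and RNA from 4 mice with similar scores was pooled for each library. A library is thus a pool of mice. The values measure ribosome-bound RNA in the pull-down, in which fewer cells of a type and less RNA per cell cannot be told apart. The 5 D1 Resilient libraries (D1-Cre-RT females after the same stress) and the Control and Susceptible libraries of the D2 class (A2A-Cre-RT females) are given only where a value needs them.

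As background, D1 medium spiny neurons are inhibitory neurons that carry the Drd1 receptor, which raises cyclic AMP when dopamine binds, and make the peptides dynorphin (Pdyn) and substance P (Tac1). D2 medium spiny neurons carry Drd2 and Adora2a and make enkephalin (Penk). Both classes answer strong synaptic input and cyclic AMP with immediate early genes, transcription factors and signal regulators such as Fos, Egr1, Nr4a1 and Btg2 whose RNA is made within minutes through CREB and related factors and decays quickly. The nucleus accumbens is studied in stress because its output neurons shape reward seeking and social approach.

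No gene passed the test between D1 Susceptible and D1 Control. In edgeR's quasi-likelihood test, 0 of 19368 genes (0.0%) had a Benjamini-Hochberg adjusted p under 0.05, and the smallest adjusted p was 0.53. At an unadjusted p under 0.05 there were 465 genes (2.4%), of which 273 (1.41%) were higher and 192 (0.991%) lower in Susceptible. Susceptible 1 is rich in rRNA. Without it, 0 of 19853 genes (0.0%) passed, and 290 (1.46%) had an unadjusted p under 0.05, 133 (0.67%) higher and 157 (0.791%) lower. DESeq2 called 3 genes with all libraries (0.0155%) and 4 without Susceptible 1, and limma voom called 0 both times. A model of the 15 D1 libraries alone, in which the spread is not shared with the D2 class, called 0 of 17604 and had 938 genes (5.33%) with an unadjusted p under 0.05. All directions below are therefore of values that did not pass the adjusted test.

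The result came with narrow intervals for abundant genes. Levels are in CPM, a gene's reads per 1000000 reads of its library after TMM scaling, and differences are in log2, Susceptible minus Control, so that 1 means 2-fold higher. Of the 9150 genes with a mean of at least 10 CPM, 98.5% had a 95% interval that stayed within 2-fold in both directions, and 90.3% within 1.5-fold. The median interval reached 1.19-fold to either side. From 1 to 10 CPM, 59.6% of 4334 genes had an interval within 2-fold. Under 0.5 CPM it was 5 of 4495 genes, so differences in rarely read genes were poorly bounded at this depth. Across all genes tested, 9224 (47.6%) were higher and 10139 lower in Susceptible, with a median of -0.012.

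**Figure D1:**
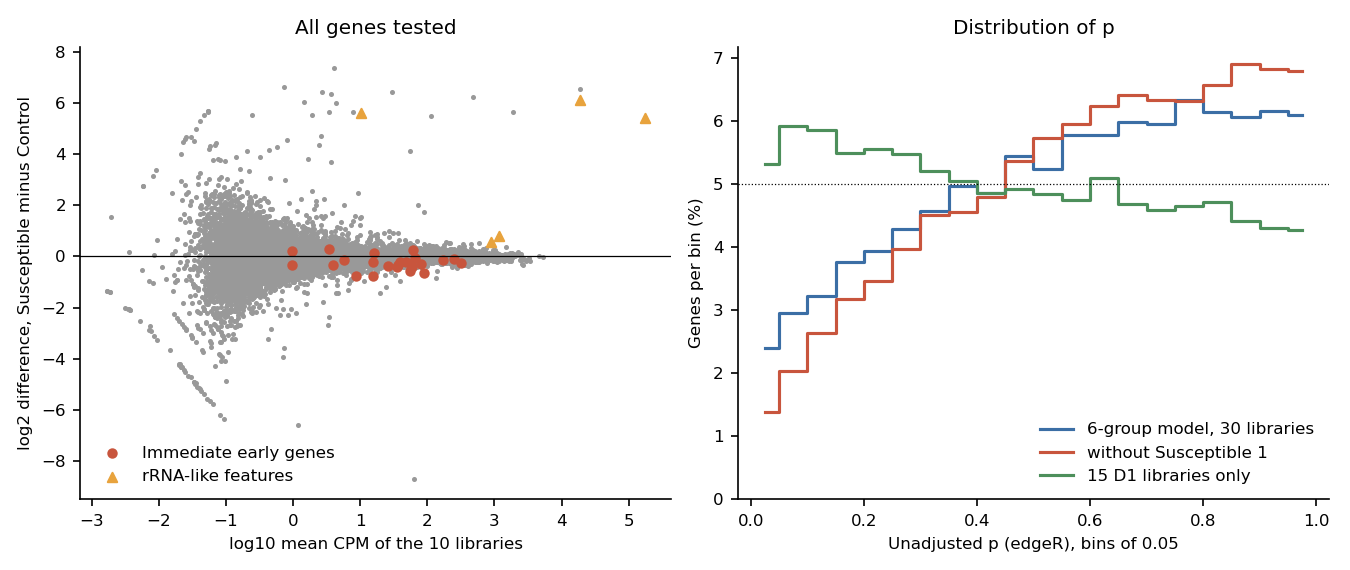
Left, log2 difference (Susceptible minus Control) of each gene tested against the log10 of its mean CPM over the 10 libraries, with immediate early genes as red circles and rRNA-like features as orange triangles. Right, percent of genes per bin of 0.05 of unadjusted p in 3 edgeR fits, the dotted line at 5% marking an even spread. The bin of smallest p holds 2.4% of genes in the model of all libraries, 1.46% without Susceptible 1 and 5.33% with the D1 libraries alone.

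Libraries differed in make-up in ways that the group labels do not give. Total gene counts ran from 28996168 to 59141960. In Susceptible 1, 61.3% of gene counts fell on rRNA-like features, led by Gm42418 (54.9%), which left 11222338 other counts, and 41.2% of its reads lay in no gene. The share was 5.99% in Susceptible 5 and 2.85% in Control 1, and the other 7 libraries lay between 0.518% and 0.794%. Lars2, whose gene holds an rRNA-like stretch, had 181800, 571, 408, 458 and 3569 CPM in Susceptible 1 to 5, and 1427, 248, 388, 220.1 and 404 in Control 1 to 5. Its log2 difference was 6.12 (SE 1.36, adjusted p = 0.53) and 1.23 without Susceptible 1. Control 1 was high in glial RNA. Its summed astrocyte markers came to 948 CPM, against 484 to 565 in the other 4 Controls and 488 to 823 in Susceptible. Its microglia and macrophage markers came to 108 CPM, against 31.6 to 41.8 and 34.6 to 49.0.

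D1 markers were high in every library, as the class label says, while D2 markers were uneven. Drd1 had 380.2, 476, 482, 569 and 562 CPM in Control 1 to 5 and 412, 616, 594, 469.5 and 377 in Susceptible 1 to 5, against 118 ± 80.9 (SD, n = 5) in D2 Control. The ranges overlapped almost wholly, with Susceptible 5 and Control 1 the lowest. In the fit of the D1 libraries, Drd1 differed by 0.0055 (SE 0.13, unadjusted p = 0.967), Pdyn by -0.023 (SE 0.11) and Tac1, the substance P precursor, by -0.049 (SE 0.10). The model of all libraries gave Drd1 a log2 difference of -0.00067 with an SE of 0.43, wider because that model shares its spread with the D2 class. Of 9 D1 markers, 0 had an unadjusted p under 0.05 in either direction, 2 were higher and 7 lower, and without Susceptible 1 it was 7 and 2. Rpl22, the ribosomal protein that RiboTag tags, had 63.9, 58.8, 59.6, 56.6 and 61.3 CPM in Control and 42.8, 59.9, 61.7, 62.96 and 64.7 in Susceptible, so only Susceptible 1 stood low.

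D2 markers were higher in 3 of the Susceptible libraries. Adora2a, the adenosine receptor of D2 neurons, had 293, 105, 151, 314 and 259 CPM in Susceptible 1 to 5 and 238, 164, 111, 128 and 113 in Control 1 to 5, against 1202 ± 272 (SD, n = 5) in D2 Control. Drd2 had 143, 55.9, 70.95, 130.4 and 124 in Susceptible and 125, 74.7, 59.8, 64.7 and 49.8 in Control. Susceptible 1, 4 and 5 lay above the other 2 Susceptible libraries in both genes, and Control 1 above the other Controls. Penk showed the same split, with 2237, 915, 1322, 2137 and 1902 in Susceptible and 1811, 1313, 1131, 1133 and 1125 in Control. The log2 difference was 0.57 (SE 0.26, unadjusted p = 0.0368) for Adora2a and 0.48 (SE 0.25, unadjusted p = 0.0675) for Drd2. Both were smaller without Susceptible 1, at 0.46 and 0.35. Of 6 D2 markers tested, 5 were higher (median 0.43, without Susceptible 1 0.31). 1 further D2 marker was not analysed here. The same 4 libraries had the lowest sums of D1 markers, 1851, 2091, 1873 and 1887 CPM, against 2235 to 2775 in the other 6. The part of this make-up in the differences below was not tested.

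**Figure D2:**
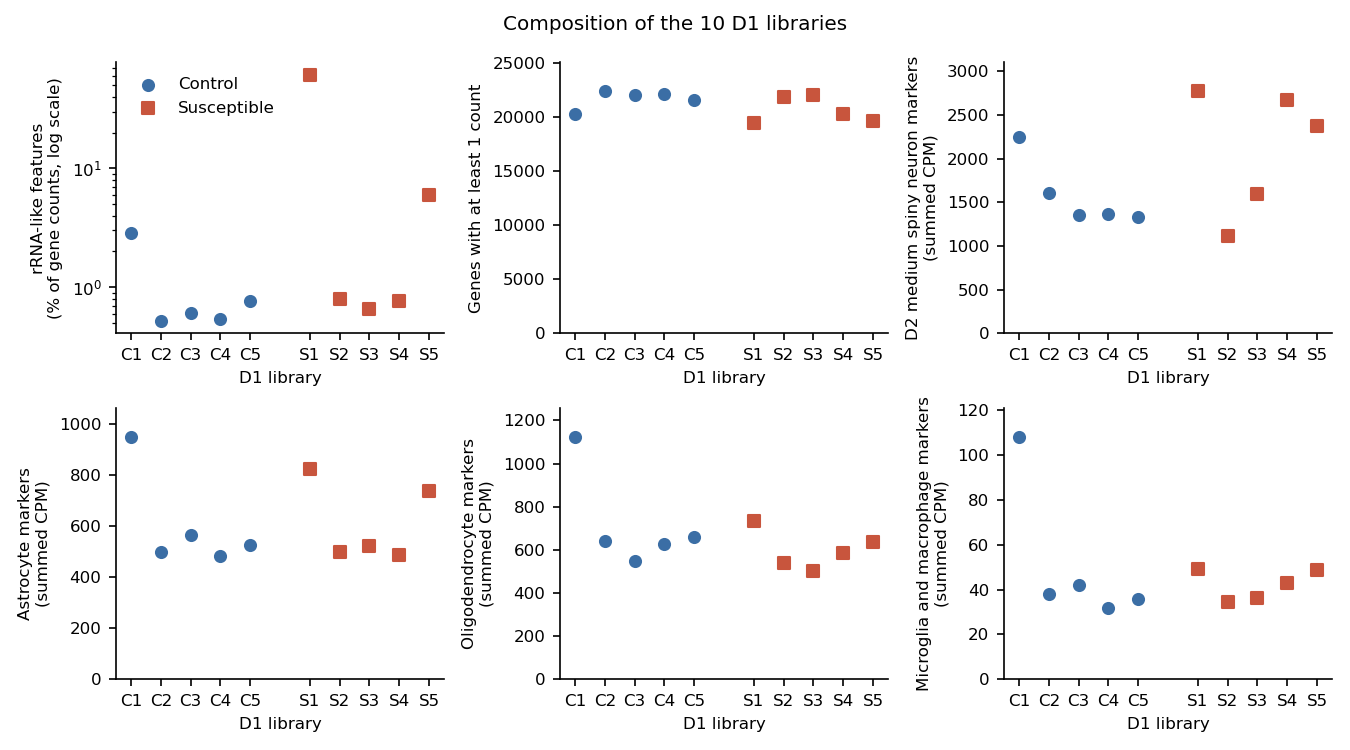
Make-up of the 10 D1 libraries, Control 1 to 5 (C1 to C5, blue circles) and Susceptible 1 to 5 (S1 to S5, red squares): rRNA-like features in percent of gene counts on a log axis, genes with at least 1 count, and summed CPM of D2 neuron, astrocyte, oligodendrocyte and microglia markers. S1 stands out in rRNA at 61.3%, C1 in glial markers with an astrocyte sum of 948 CPM, and S1, S4, S5 and C1 in D2 markers.

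Immediate early genes were the list with the most members at a low unadjusted p in 1 direction. Of 24 tested, 20 were lower and 4 higher in Susceptible, with a median of -0.28, beside -0.012 over all genes. At an unadjusted p under 0.05, 7 of 24 were lower, where 0.991% of all genes were, and 0 higher. The counts were the same without Susceptible 1 (20 lower, 7 at that p, median -0.27). In the fit of the D1 libraries 8 were lower at that p, where 2.64% of all genes were. Leaving out 1 library at a time gave medians of -0.33 to -0.19 and 3 to 9 genes at that p. The weakest value came without Control 5, whose immediate early gene sum was the highest of the 10 (1959 CPM). The sum ran from 1260 to 1959 CPM in Control and from 1184 to 1404 in Susceptible, and the groups overlapped through Control 1, the lowest Control. Fosl1 was too low to test, and Egr2 was listed at 0 in all 10 libraries.

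The stretch before the start of 3 of these genes is shown because it holds the short letters that the factor CREB is known to bind. The bases are the 250 before the transcription start in the RefSeq annotation of GRCm38.p6, read 5′ to 3′ on the gene's strand, and capitals mark TGACG, the core of the cyclic AMP response element (CRE), or its reverse complement CGTCA.
Btg2, chr1:134079156-134079405, minus strand: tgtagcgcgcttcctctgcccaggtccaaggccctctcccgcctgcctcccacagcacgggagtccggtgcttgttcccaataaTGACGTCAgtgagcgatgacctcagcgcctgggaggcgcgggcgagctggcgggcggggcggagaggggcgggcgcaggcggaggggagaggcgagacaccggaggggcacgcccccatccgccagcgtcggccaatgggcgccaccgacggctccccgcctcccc
Fos, chr12:85473640-85473889, plus strand: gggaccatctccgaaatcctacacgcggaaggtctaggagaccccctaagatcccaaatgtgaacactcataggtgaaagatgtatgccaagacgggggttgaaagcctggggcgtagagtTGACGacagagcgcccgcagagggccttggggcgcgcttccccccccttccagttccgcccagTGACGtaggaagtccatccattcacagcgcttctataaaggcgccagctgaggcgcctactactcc
Nr4a1, chr15:101266596-101266845, plus strand: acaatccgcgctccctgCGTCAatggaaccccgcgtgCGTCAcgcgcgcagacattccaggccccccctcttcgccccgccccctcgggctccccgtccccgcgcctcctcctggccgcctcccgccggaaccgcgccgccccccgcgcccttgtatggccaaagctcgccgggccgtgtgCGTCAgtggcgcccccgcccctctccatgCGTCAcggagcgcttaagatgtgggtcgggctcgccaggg
In Btg2 the 2 cores overlap into the full palindrome TGACGTCA, which begins 166 bases before the start. Fos holds cores 129 and 66 bases before its start, and Nr4a1 holds 4. Over all 32851 promoter windows of the same length, searched on both strands, 17.8% held TGACG and 1.55% the full TGACGTCA. RefSeq windows were matched for 20 of the immediate early genes, 14 of which held TGACG in at least 1 window, and 2 of which, Btg2 and Dusp1, held TGACGTCA. Such a match is a description of these letters and was not tested for binding.

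Btg2, an antiproliferative immediate early gene of the BTG/TOB family (chr1:134075170-134079120 in GENCODE M21), had the smallest p of the genes with at least 1 CPM that the ranking named. Its levels were 9.08, 10.9, 13.1, 9.404 and 12.7 CPM in Control 1 to 5 and 6.49, 5.89, 5.96, 7.505 and 6.199 in Susceptible 1 to 5. Every Susceptible library lay below every Control, as for 0.532% of all genes tested. The mean was 11.02 ± 1.83 in Control and 6.41 ± 0.657 in Susceptible (SD, n = 5), 1.72-fold lower, a log2 difference of -0.78 (SE 0.20, unadjusted p = 0.000449, edgeR adjusted p = 0.688). Without Susceptible 1 it was -0.78 (SE 0.22). In the fit of the D1 libraries the adjusted p was 0.0722, the lowest of that fit, and over the 24 alternatives it ran from 0.0722 to 1 with log2 differences of -0.84 to -0.71. The Resilient libraries had 6.92, 6.34, 6.43, 7.42 and 6.11, also below every Control. In D2 libraries Btg2 had 7.53 ± 1.82 in Control, and the D1 difference minus the D2 difference was -0.76 (SE 0.28, unadjusted p = 0.0105, adjusted p = 0.637).

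Fos, a partner in the AP-1 transcription factor, had 10.2, 20.6, 17.1, 19.4 and 30.9 CPM in Control 1 to 5 and 13.6, 8.93, 11.8, 15.3 and 8.71 in Susceptible 1 to 5. The groups overlapped because Control 1 was low. Its log2 difference was -0.76 (SE 0.27, unadjusted p = 0.00812), and -0.53 without Control 5, with an unadjusted p of 0.0542. Nr4a1, an orphan nuclear receptor, had 87.00, 127, 92.9, 97.3 and 139 in Control and 87.2, 52.9, 59.7, 74.1 and 77.3 in Susceptible. Of the 5 Susceptible libraries, 4 lay below all Controls, and Susceptible 1 lay just above the lowest one. The log2 difference of Nr4a1 was -0.63 (SE 0.21, unadjusted p = 0.00645), and -0.71 without Susceptible 1. Arc, a synaptic capsid-like protein that controls AMPA receptor traffic, differed by -0.56 (SE 0.28), with an unadjusted p of 0.0546.

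Of the 2 MAP kinase phosphatases named here, Dusp6, which acts on ERK, had 28.9, 37.6, 42.2, 39.9 and 50.2 CPM in Control and 30.03, 30.1, 35.5, 30.04 and 24.4 in Susceptible, a log2 difference of -0.40 (SE 0.13, unadjusted p = 0.00425). Dusp1 differed by -0.37 (SE 0.15, unadjusted p = 0.0201). Among the transcription factors, Egr1 differed by -0.27 (SE 0.12, unadjusted p = 0.0234) and Fosl2 by -0.28 (SE 0.13, unadjusted p = 0.0443). Without Control 5 these 3 had unadjusted p of 0.081, 0.132 and 0.14. The 4 genes with higher values in Susceptible were Jund, Jun, Klf2 and Gadd45b. Jun, at 0.23 (SE 0.20), had the smallest p of them, 0.251. Bdnf, a growth factor gene that activity also switches on and that stood in the neurotrophin list, had 10.6, 12.1, 15.6, 14.2 and 23.4 in Control and 9.54, 12.4, 9.93, 11.1 and 7.26 in Susceptible (-0.59, SE 0.32, unadjusted p = 0.072).

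**Figure D3:**
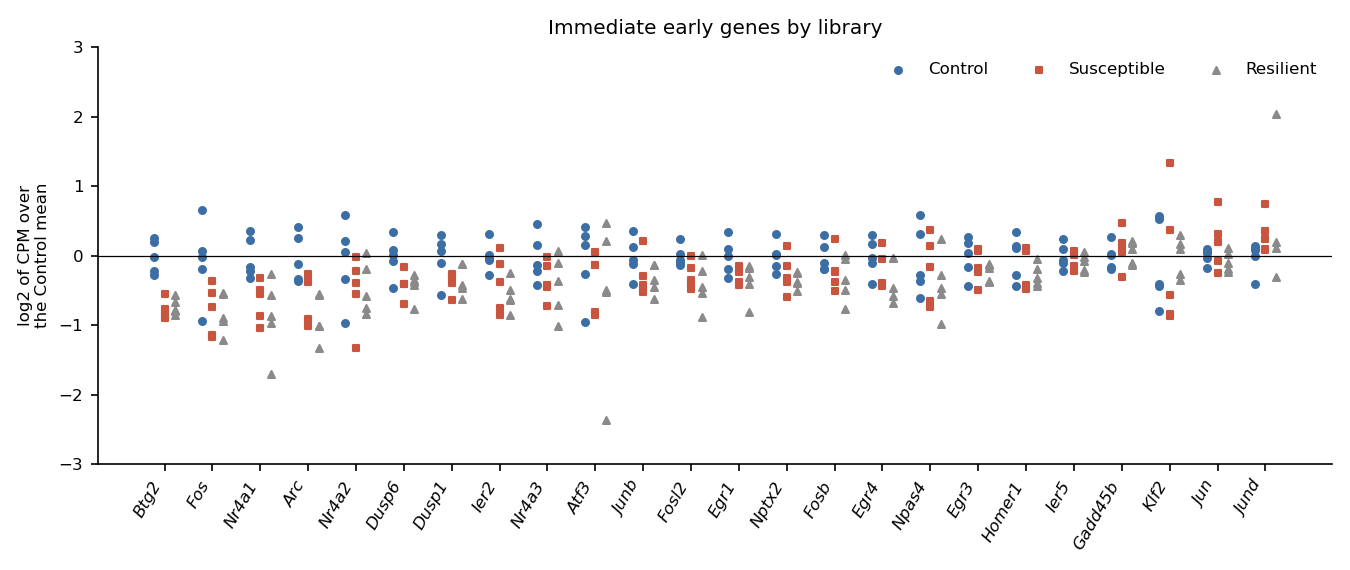
log2 of the CPM over the Control mean for the 24 immediate early genes tested, 1 point per D1 library, Control as blue circles, Susceptible as red squares and Resilient as grey triangles, ordered by the Susceptible difference. Btg2 at the left has all Susceptible points below all Control points, most other genes overlap, and 1 Resilient point of Jund lies beyond the axis limit of 3.

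Resilient libraries are shown beside the others because both stressed groups share the Control libraries. For Fos they had 8.51, 13.5, 10.6, 13.3 and 10.2 CPM and for Nr4a1 33.2, 72.97, 55.2, 90.3 and 59.4. All 5 values of Fos and 4 of Nr4a1 lay within the Susceptible range or below it, and the highest of Nr4a1 lay above it. The direct difference, Susceptible minus Resilient, was -0.053 (SE 0.20) for Btg2, 0.047 (SE 0.27) for Fos and 0.17 (SE 0.21) for Nr4a1. Over all genes that comparison had 0 of 19368 calls (0.0%) in edgeR and 675 (3.49%) at an unadjusted p under 0.05, and DESeq2 called 8. Whether the D1 difference departs from that of D2 neurons under the same stress was also tested per gene, with 0 calls (0.0%), 1509 genes (7.79%) at an unadjusted p under 0.05, and 5 DESeq2 calls.

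The circadian list, genes of the daily transcription clock, had a summed level above the Controls in every Susceptible library. The sum was 1556 to 1678 CPM in Control and 1703 to 1824 in Susceptible, and 1678 to 1832 in Resilient. Abundant members such as Tef weigh more in this sum, so it does not stand for every clock gene. Of 19 genes, 12 were higher and 7 lower (median 0.073, and 0.079 without Susceptible 1), and 2 were higher at an unadjusted p under 0.05, against 1.41% of all genes. Both are clock output factors that bind D-box elements. Dbp had 142, 147, 109, 130.2 and 108 CPM in Control and 155, 144, 144, 216 and 143 in Susceptible, with overlap and with Susceptible 4 far above the rest (0.33, SE 0.12, unadjusted p = 0.00732). Tef (chr15:81802421-81826863) had 426, 428, 366, 409 and 378 in Control and 447, 445, 460.4, 458 and 465 in Susceptible, where all 5 lay above all Controls, as for 0.356% of all genes. The Tef difference was small, 1.13-fold, and its log2 value was 0.18 (SE 0.071, unadjusted p = 0.0159). Without Susceptible 1 another gene, Bhlhe41, a clock repressor, reached an unadjusted p of 0.0325 with 0.18. Of the core loop, Arntl differed by -0.050 (SE 0.18), Per1 by 0.040 (SE 0.12), and Rorb, the lower gene with the smallest p, by -0.28 (SE 0.21, unadjusted p = 0.194). The labels used here give no time of day for the tissue.

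1 of the 2 RefSeq start sites of Tef is shown because its promoter window holds the E-box CACGTG, in capitals, to which the clock factors CLOCK and ARNTL bind.
Tef, chr15:81811164-81811413, plus strand: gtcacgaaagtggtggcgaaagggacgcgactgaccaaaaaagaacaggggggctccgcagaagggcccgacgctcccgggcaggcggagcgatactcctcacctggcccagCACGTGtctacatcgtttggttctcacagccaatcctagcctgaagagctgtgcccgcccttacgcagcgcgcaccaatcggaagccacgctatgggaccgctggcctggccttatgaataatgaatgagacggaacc
The E-box begins 138 bases before that start, and the window of the other start holds 1 as well. Of all windows 6.02% held CACGTG, and of 17 clock genes with a window 5 did, Tef among them and Dbp not.

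Genes that both medium spiny classes share were mostly higher. Of 23 tested, 20 were higher and 3 lower, with a median of 0.11 (0.12 without Susceptible 1). At an unadjusted p under 0.05, 2 were higher, where 1.41% of all genes were, and 0 lower, where 0.991% were. In the fit of the D1 libraries 8 were higher at that p, where 2.69% of all genes were. Adcy5, the striatal adenylyl cyclase that makes cyclic AMP after dopamine, had 1033, 1011, 779, 989 and 920.5 CPM in Control and 1199, 1070, 1052, 1194 and 1087 in Susceptible. All 5 Susceptible libraries lay above all Controls, as for 0.356% of all genes, and the log2 difference was 0.24 (SE 0.10, unadjusted p = 0.0259). Scn4b, the sodium channel beta subunit typical of these neurons, had 970.1, 985, 823, 1030 and 945 and 954, 1148, 1149, 1203 and 1092 (0.22, SE 0.11, unadjusted p = 0.0529, without Susceptible 1 0.0209). Pde10a, which breaks cyclic nucleotides down, differed by 0.29 (SE 0.13, unadjusted p = 0.0299) with Susceptible 1 and by 0.16 without it.

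Markers of other neurons leaned the other way. Of 15 interneuron markers 12 were lower (median -0.31, and -0.30 without Susceptible 1). In the model of all libraries 0 had an unadjusted p under 0.05. The fit of the D1 libraries had 6 lower at that p, where 2.64% of all genes were. Without Susceptible 1 that fit had 4 lower, where 2.29% of all genes were. The sum ran from 533 to 688 CPM in Control and from 488 to 584 in Susceptible. Kit, a receptor tyrosine kinase of striatal interneurons, had a mean of 23.1 ± 3.096 CPM in Control and 16.8 ± 2.63 in Susceptible (SD, n = 5), with 4 Susceptible libraries below all Controls (-0.46, SE 0.24, unadjusted p = 0.0649). Lhx6, a transcription factor of interneurons from the medial ganglionic eminence, was the 1 member whose Susceptible libraries all lay below the Controls. Over all genes tested, 0.532% did so. Lhx6 is named after its values were seen. Its level was 19.4, 15.3, 15.8, 13.9 and 15.3 CPM in Control and 9.34, 11.6, 13.2, 12.1 and 13.7 in Susceptible (-0.41, SE 0.33). Of 10 cortical excitatory neuron markers 9 were lower (median -0.28, without Susceptible 1 -0.17). In the model of all libraries 0 had an unadjusted p under 0.05. The fit of the D1 libraries had 4 lower at that p, where 2.64% of all genes were. Without Susceptible 1 that fit had 1 lower, where 2.29% of all genes were.

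Most chaperone genes also had lower values. Of 34 heat shock and unfolded protein response genes, 26 were lower and 8 higher (median -0.087, and -0.067 without Susceptible 1). At an unadjusted p under 0.05, 4 were lower with all libraries, against 0.991% of all genes, but 1 without Susceptible 1, against 0.791%. Hspa8, the constitutive Hsc70 chaperone, had 2599, 2615, 3322, 3116 and 3361 CPM in Control and 2183, 3016, 2314, 2091 and 2436 in Susceptible. Only Susceptible 2 reached into the Control range, and the log2 difference was -0.32 (SE 0.10, unadjusted p = 0.00438), or -0.28 without Susceptible 1. Atf4, the transcription factor of the integrated stress response, had 102, 94.2, 94.5, 94.3 and 109 and 80.4, 80.8, 88.1, 83.02 and 82.9. All Susceptible lay below all Control, as for 0.532% of all genes, and Atf4 is named after its values were seen (-0.25, SE 0.14, unadjusted p = 0.0947). Hspb1, a small heat shock protein, leaned higher at 1.08 (SE 0.57) but at under 2 CPM in every library.

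Endothelial and mural markers, genes of blood vessel cells at low levels here, had 15 of 17 higher. The median was 0.50 with all libraries, 0.27 without Susceptible 1 and 0.83 without Control 1, so single libraries moved it by more than 1.5 times. In limma voom with all libraries it was 0.17. At an unadjusted p under 0.05, 4 were higher, against 1.41% of all genes, and 2 without Susceptible 1, against 0.67%. Ly6c1, an endothelial surface protein, had 3.48, 3.099, 2.69, 1.66 and 2.04 CPM in Control and 3.65, 4.05, 3.63, 4.93 and 5.67 in Susceptible. All 5 lay above all Controls, as for 0.356% of all genes (0.76, SE 0.26, unadjusted p = 0.00602). Ly6a, a neighbour of the same family, had 4.203, 2.03, 2.28, 2.05 and 2.65 and 4.16, 3.32, 3.01, 6.04 and 3.45 (0.59, SE 0.22, unadjusted p = 0.0121). Reads of such similar genes can be split in counting, so the values of both are uncertain. The summed level of the list, ruled by its abundant members, was 396 to 461 CPM in Control and 400 to 507 in Susceptible, and Cldn5, a defining tight junction gene, differed by 0.21 (SE 0.35).

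Glial lists shifted upwards without Control 1, and the astrocyte and microglia medians changed sign. Of 12 astrocyte markers 8 were lower (median -0.18, without Susceptible 1 -0.34), and without Control 1 the median was 0.33. Microglia and macrophage markers went from -0.26 to 0.46 without Control 1, and oligodendrocyte markers from -0.31 (11 of 14 lower) to -0.016 (8 of 14 lower). Ermn, a myelin cytoskeleton gene, had 11.3, 6.13, 4.77, 8.76 and 6.85 CPM in Control and 8.42, 4.07, 3.08, 4.06 and 3.96 in Susceptible (-0.72, SE 0.30, unadjusted p = 0.0214). It was -0.99 without Susceptible 1 (unadjusted p = 0.00208) and -0.52 without Control 1. Ctss, a lysosomal protease of microglia, had 13.3, 2.96, 2.79, 1.79 and 2.55 and 4.06, 1.61, 2.201, 3.53 and 2.46, where Control 1 alone set the difference of -0.79 (SE 0.41), which was 0.11 without that library.

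**Figure D4:**
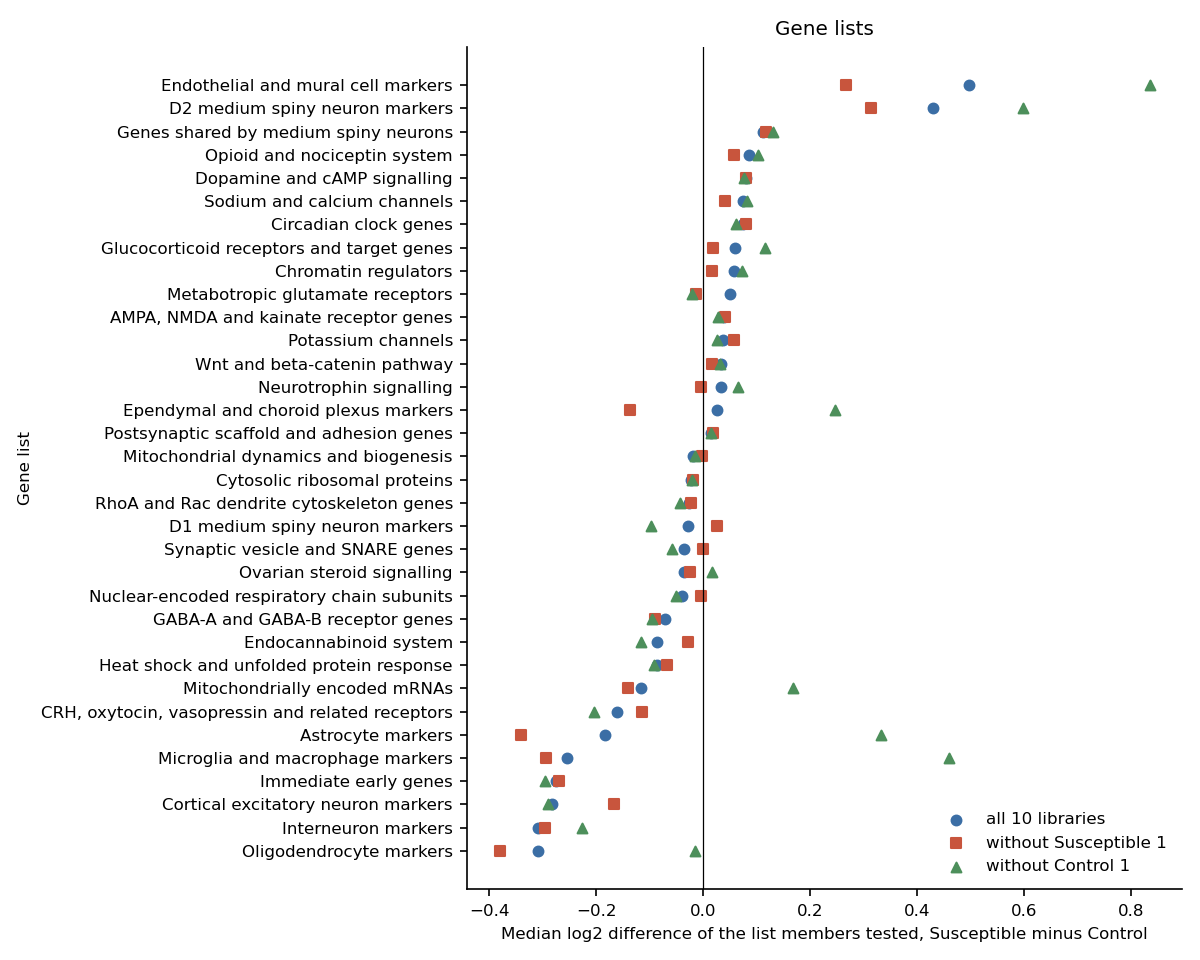
Median log2 difference (Susceptible minus Control) of the members tested in each of 34 gene lists, with all 10 libraries (blue circles), without Susceptible 1 (red squares) and without Control 1 (green triangles). Immediate early genes hold near -0.28 in all 3, while endothelial, astrocyte, microglia, oligodendrocyte and mitochondrially encoded mRNA lists move with Control 1.

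Stress hormone genes had 1 member at a low p. Of 18 glucocorticoid receptors and targets, 12 were higher and 6 lower (median 0.060, without Susceptible 1 0.018). Fkbp5, a co-chaperone that the glucocorticoid receptor induces and that dampens it, had 57.4, 55.3, 51.7, 60.6 and 54.04 CPM in Control and 57.7, 60.8, 64.6, 65.5 and 68.9 in Susceptible. Of the 5 Susceptible libraries 4 lay above all Controls. The difference was 1.14-fold, a log2 value of 0.19 (SE 0.077, unadjusted p = 0.0211), and 0.23 without Susceptible 1 (unadjusted p = 0.00844). Resilient libraries had 65.5, 69.01, 61.8, 69.4 and 59.03, also high beside the Controls. Nr3c1, the receptor itself, differed by -0.11 (SE 0.10). In the list of CRH, oxytocin and vasopressin genes, with 5 higher and 9 lower of 14, Crhr1, the main CRH receptor, differed by 0.39 (SE 0.21, unadjusted p = 0.0686). Of 16 ovarian steroid signalling genes, 7 were higher, 9 lower and 0 at an unadjusted p under 0.05.

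Most receptor and channel genes had a 95% interval within 2-fold in the model of all libraries. In the fit of the D1 libraries, 3 of 28 AMPA, NMDA and kainate receptor genes were lower and 1 higher at an unadjusted p under 0.05. At that p, 3 of 30 potassium channels were lower and 2 higher, and 3 of 25 sodium and calcium channels were higher and 0 lower. Of all genes 2.64% were lower and 2.69% higher. Of 29 AMPA, NMDA and kainate receptor genes, 28 had a 95% interval within 2-fold, and 0 had an unadjusted p under 0.05. Grik5, a kainate receptor subunit, differed by 0.25 (SE 0.13) and Cnih3, an AMPA receptor auxiliary subunit, by -0.29 (SE 0.15). Grm3, a metabotropic glutamate receptor, differed by 0.43 (SE 0.16, unadjusted p = 0.00988), but by 0.28 without Susceptible 1, which had the highest value of its group, and Grm8 by -0.43 (SE 0.29). Among 30 potassium channel genes, Kcnj3, the GIRK1 channel subunit, had 69.1, 75.5, 125, 81.5 and 106 CPM in Control and 58.04, 83.3, 78.1, 60.5 and 61.9 in Susceptible (-0.42, SE 0.16, unadjusted p = 0.0154), and Kcnip2, a Kv4 partner, differed by 0.21 (SE 0.12). Gabra3, a GABA-A receptor subunit, differed by -0.17 (SE 0.10). Oprm1, the mu opioid receptor, had 0.771, 0.971, 0.716, 0.425 and 0.971 and 11.7, 0.361, 1.15, 1.03 and 3.65, so that its 2.17 (SE 0.79, unadjusted p = 0.0103) rested on Susceptible 1 and 5, and it was 1.01 without Susceptible 1.

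Synaptic, nuclear-encoded mitochondrial and ribosomal lists lay near 0. All 30 RhoA and Rac genes, which shape the dendrite cytoskeleton, had a 95% interval within 2-fold, with a median of -0.027. Rhob differed by 0.11 (SE 0.081), and by 0.18 without Susceptible 1 (unadjusted p = 0.0335). All 47 nuclear-encoded respiratory chain subunits and all 22 mitochondrial dynamics and biogenesis genes were bounded in the same way. Their medians were -0.039 and -0.020, and without Susceptible 1 -0.0037 and -0.0021. Of the respiratory chain genes 34 were lower with all libraries and 25 without Susceptible 1. Among single genes, Uqcrfs1, a complex III subunit, differed by -0.12 (SE 0.064), Polg, the mitochondrial DNA polymerase, by 0.11 (SE 0.073) and Mfn1, a fusion protein, by -0.14 (SE 0.071). Of 77 cytosolic ribosomal proteins 28 were higher and 49 lower (median -0.023), with Rps15 at 0.18 (SE 0.087) and Rpl17 at -0.85 (SE 0.40). Of 30 postsynaptic scaffold genes, 29 had an interval within 2-fold, with Dlg3, a scaffold of glutamate receptors, at 0.10 (SE 0.060) and Camk2d, a calcium-dependent kinase, at -0.28 (SE 0.16). Of 28 Wnt and beta-catenin genes, 16 were higher and 12 lower, and Dvl3, a Wnt signal carrier, differed by -0.16 (SE 0.11). Kl, the klotho gene of choroid plexus and some neurons, differed by 0.31 (SE 0.16).

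Beyond the lists, the genes with the smallest p in both fits, with and without Susceptible 1, are given by rank, 12 in each direction. Their adjusted p ran from 0.688 to 1. Of the 12 higher, 4 had all Susceptible libraries above all Controls (Ly6c1, Pskh1, Tef and Tpst1), and of the 12 lower, 5 had all below (Btg2, Rbm45, Hsd17b12, Tent5a and Tnnt1). Over all genes tested, 0.356% lay above and 0.532% below in this way. The ranking chose these genes by p from the same values, so groups that lie apart go with that choice. Slc41a1, a magnesium transporter, had 33.2, 26.2, 25.2, 27.3 and 28.1 CPM in Control and 36.2, 32.4, 35.4, 36.7 and 41.6 in Susceptible, where only the lowest Susceptible library fell under the highest Control. Its difference was 1.303-fold, a log2 value of 0.38 (SE 0.10, unadjusted p = 0.000767). Tpst1, which sulfates tyrosines of secreted proteins, had 42.4, 45.3, 41.6, 50.01 and 45.6 and 50.9, 57.1, 51.1, 50.8 and 51.8 (0.22, SE 0.087). Lrrc10b, Cdc34 (a ubiquitin-conjugating enzyme), Pskh1 and Nup188 (a nuclear pore subunit) differed by 0.35, 0.29, 0.47 and 0.63.

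Some of the ranked genes rested on few libraries. Srsf1, a splicing factor, had 1.62, 2.89, 68.9, 2.43 and 2.18 CPM in Susceptible and 2.38, 2.66, 3.203, 3.196 and 2.48 in Control, so its 2.50 (SE 0.68) came from Susceptible 3 alone. Psmd10, a proteasome assembly factor, had 0.535, 0.375, 0.471, 0.499 and 26.5 in Control and 0.203, 1.29, 0.913, 0.763 and 1.06 in Susceptible, so its -2.69 (SE 0.89) came from Control 5. Slc24a4, a sodium, potassium and calcium exchanger, was highest in Susceptible 1 and 5, at 63.01, 22.6, 22.4, 21.6 and 42.2 against 24.1, 19.1, 17.4, 22.3 and 17.3 in Control (0.76, SE 0.22, and 0.45 without Susceptible 1).

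Of the other genes ranked lower, some had groups that did not overlap. Rbm45, an RNA-binding protein, had 39.4, 40.3, 43.3, 42.8 and 45.8 CPM in Control and 29.9, 35.1, 38.3, 33.6 and 27.4 in Susceptible, with no overlap (-0.36, SE 0.10, unadjusted p = 0.00126). Hsd17b12, which elongates fatty acids and converts steroids, had 53.1, 53.4, 59.9, 54.5 and 62.5 and 44.9, 49.2, 48.2, 40.2 and 35.96, also apart (-0.38, SE 0.13, unadjusted p = 0.00583). Tnnt1, a troponin, had 3.46, 7.08, 13.8, 4.82 and 4.297 and 2.74, 2.28, 1.92, 2.33 and 3.14, apart but with Control 3 far above the other Controls (-1.43, SE 0.51). Klf10, a transcription factor that activity and growth factors induce, differed by -0.41 (SE 0.13), Nacc2, a transcriptional repressor, by -0.40 (SE 0.12), Plcxd2 by -0.61 (SE 0.21) and Tent5a, a poly(A) polymerase, by -0.71 (SE 0.27).

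**Figure D5:**
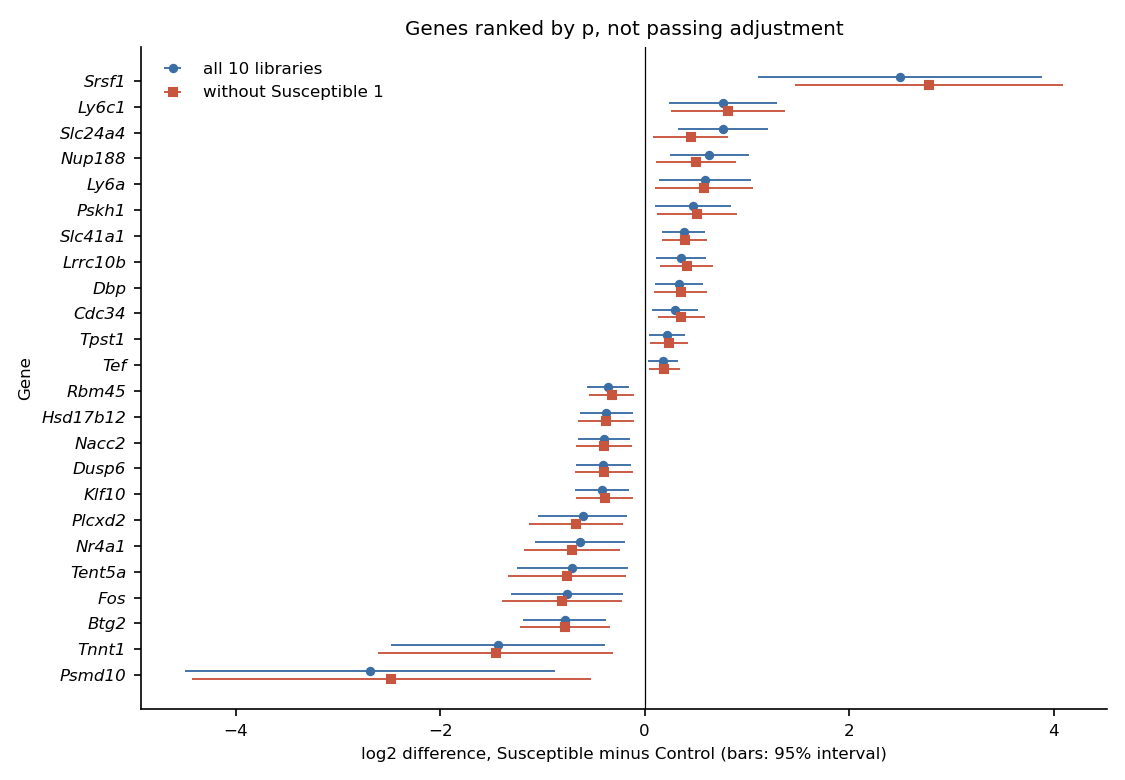
log2 difference (Susceptible minus Control) with its 95% interval for the 24 genes ranked by p, with all 10 libraries (blue circles) and without Susceptible 1 (red squares). The values of both fits lie close together for most genes, Srsf1 and Psmd10 have the widest intervals, and none passed adjustment.

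The 3 genes that DESeq2 called with all libraries were named after their values were seen. Rad9a, a DNA damage checkpoint clamp subunit, had 32, 51, 11, 72 and 38 reads in Control 1 to 5 and 0, 4, 6, 3 and 6 in Susceptible 1 to 5, so no Susceptible library reached the lowest Control. Its log2 difference in edgeR was -3.25 (SE 0.78, adjusted p = 0.53), its adjusted p in DESeq2 was 0.0408, and in DESeq2 without Susceptible 1 it was 0.0589. Its level stayed under 1.4 CPM in every library, and the Resilient libraries had 0.131, 0.05802, 0.227, 0.181 and 0.111. Gm14308 had 44, 227, 2, 3 and 284 reads in Susceptible and 3, 0, 2, 6 and 0 in Control, so that Susceptible 1, 2 and 5 stood apart from the other 2. Gm42418 is the rRNA-like feature of Susceptible 1 and had an adjusted p of 1 in DESeq2 without that library. The 4 calls without Susceptible 1 included Gm14308, Gm37519 and Gm48225, of which Gm37519 and Gm48225 had 0 reads in all of Susceptible 2 to 5 and 16 or fewer in any Control.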

How the data were processed

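The deposited files hold whole-number read counts per gene for 30 libraries and 55335 genes, with no normalization. The authors' processing is known only in part. HISAT2, HTSeq and the builds GRCm38 and mm10 are named in the submitters' processing notes, without versions or roles, while no source used here gives the annotation release or the strand setting. Without strand, overlapping genes on opposite strands cannot be told apart. Libraries were made from 10 ng of RNA with the SMART-Seq v4 kit from pools of 4 mice, per the labels' protocols. The p-values measure the spread between these pools. Lines of reads without a gene stayed out of library sizes and tests, and were 10.3% to 53.3% of reads in the 10 libraries compared. Symbols and gene coordinates came from GENCODE M21 (GRCm38), which matched 55154 of the 55335 identifiers. Promoter windows came from RefSeq.

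Genes were kept with filterByExpr (minimum count 10, minimum total 15), which left 19368. TMM scaling was followed by the robust quasi-likelihood F test of edgeR 4.0.16 (R 4.3.3) in 1 model of the 6 groups and all 30 libraries, with Benjamini-Hochberg adjustment over all genes at 0.05. Alternatives were DESeq2 1.42.0, limma 3.58.1 voom with sample weights, and other scalings, filters and sets of libraries. Each replicate of the groups in a comparison was also left out in turn. The test was tried on simulated data. Named genes are the 12 in each direction with the smallest p with and without Susceptible 1, protein-coding with at least 1 CPM, plus 7 check genes and the member of each list with the smallest p in each direction. Of 95 such genes, 62 remain once list members whose p was above 0.2 in either fit are left out, and not all of these are reported here. Other list members are given to complete their list. The comparison, the gene lists and the rules were chosen with earlier results of these data known. Depth was 28996168 to 59141960 gene counts per library, and intervals are those of the model. Counts of same-group libraries differed by more than sampling noise, so none was merged.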

Additional observations from a re-analysis of the deposited data

Results flagged for a closer look

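In 24 of 202 groups of 5 libraries, 1 library stood far from the other 4, by a gap over 0.71 of the group's range. Chance alone flags about 1 group in 20. Control 1 gave 10 of the 24 and Susceptible 1 gave 7. The part of these libraries in the group differences was not tested beyond leaving them out.

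Susceptible 1 had 61.3% rRNA-like counts (others up to 5.99%), 41.2% of reads in no gene (others up to 9.03%) and 181800 CPM of Lars2. Its Rpl22 was low at 42.8 CPM, its Ermn high at 8.42 CPM, its cortical excitatory marker sum low at 621 CPM and its chromatin regulator sum high at 4300 CPM.

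Control 1 had 2.85% rRNA-like counts and 1427 CPM of Lars2. Its marker sums were 948 CPM for astrocytes, 1123 for oligodendrocytes and 108 for microglia and macrophages, with Ctss at 13.3 CPM. Ly6a was 4.20 CPM and Penk 1811 CPM there. Its postsynaptic scaffold sum, 8856 CPM, and its chromatin regulator sum, 3476 CPM, were the lowest Controls.

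Single genes stood apart in other libraries. Srsf1 was 68.9 CPM in Susceptible 3 (others up to 2.89), and Psmd10 was 26.5 CPM in Control 5 (others up to 0.535). Dbp was 216 CPM in Susceptible 4, Pskh1 8.64 CPM in Susceptible 5 and Tpst1 57.1 CPM in Susceptible 2. Susceptible 4 also had the highest endothelial and mural sum, 507 CPM, and ependymal and choroid plexus sum, 52.4 CPM.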

How the results depend on the processing

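The count of 0 genes held in edgeR with each of the 10 libraries compared left out in turn (0 to 0). It also held with other scalings, no filter, the 2 groups alone, and in limma voom. For this count no single Resilient or D2 library was left out. DESeq2 gave 3 genes, and 4 without Susceptible 1. For Susceptible against Resilient, DESeq2 gave 8 and 5 genes with and without Susceptible 1, voom 15 and 20, and leaving out 1 library 0 to 9. For the D1 minus D2 difference, DESeq2 gave 5 and 8. Counts at an unadjusted p under 0.05, 465 in the main model, ran from 290 without Susceptible 1 to 1491 in voom without Susceptible 1, and were 996 without 2 outlying D2 Susceptible libraries, an alternative chosen after seeing the data. Same-numbered Control and Susceptible libraries correlated at -0.017 to 0.078 in their deviations, so the numbers were not taken as pairs. The replicate block gave 0 calls, with 387 genes at that p. List medians also depended on the tool. In limma voom with all libraries, D2 markers had a median of 0.23, endothelial and mural markers 0.17 and the circadian list 0.028. These were nearer 0 than in edgeR, while immediate early genes, at -0.36, were further from 0. Over the 62 genes of the naming rule and 24 alternatives, 1477 of 1487 values stayed within the limits used. For the 7 check genes the limit was a shift smaller than the SD of the Controls, whatever the sign. For the other genes it was an unchanged direction. The naming rule took those other genes by small p and the same direction with and without Susceptible 1. Their unchanged direction was thus largely set by that choice and is no test of stability. Of the values outside the limits, 7 were shifts of check genes and 3 were reversals. Leaving out 1 library at a time, Srsf1 ran from -0.26 (without Susceptible 3) to 2.78, Psmd10 from -2.97 to 0.88 (without Control 5) and Ctss from -0.996 to 0.11 (without Control 1). Rpl22 moved from -0.035 to 0.060 without Susceptible 1. Read depth limits genes under 1 CPM, and Susceptible 1 is the shallowest library for them. All 10 libraries come from pools, so mouse-to-mouse spread is not seen. Alternatives that leave out 2 libraries, or combine Susceptible 1 with another tool, were also chosen after seeing the data.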

Other observations

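Some lists not described above are given with and without Susceptible 1. Dopamine and cAMP signalling genes were higher in 14 of 24 (median 0.080) and in 17 of 24 without Susceptible 1 (median 0.079). At an unadjusted p under 0.05, 3 of them were higher, against 1.41% of all genes, and 0 without Susceptible 1. In the fit of the D1 libraries 5 were higher at that p, against 2.69%. Chromatin regulators were higher in 29 of 40 (median 0.058) and in 21 of 40 without Susceptible 1 (median 0.015), with 0 at an unadjusted p under 0.05 both times. Sodium and calcium channels were higher in 19 of 25 and in 15 without it. Synaptic vesicle and SNARE genes were lower in 22 of 31 and in 15 without it. Mitochondrially encoded mRNAs, translated on the organelle's own ribosomes, summed to 3897 to 14130 CPM in Control and 6575 to 9127 in Susceptible, with Control 1 the highest. The median log2 difference of these mRNAs was -0.12, and -0.14 without Susceptible 1. It was 0.17 without Control 1 and 0.43 in limma voom with all libraries, so its sign was not stable. Endocannabinoid genes were lower in 6 of 9 (median -0.086) and in 6 of 9 without Susceptible 1 (median -0.029). The opioid and nociceptin list was higher in 7 of 10 (median 0.086) and in 8 of 10 without it (median 0.057).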
